A study of Mus musculus with 2 samples.

Results

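Astrocytes (ASC) were examined in 2 single-nucleus ATAC-seq libraries of mouse primary motor cortex. They are all nuclei with the name ASC in the deposited per-nucleus annotation. These were 1690 of 16314 nuclei, with 801 in replicate 1 and 889 in replicate 2. Both libraries came from the MOp-2 dissection, which lies in brain slice 3, of male C57BL/6J mice aged 56 to 63 days, and were made on the droplet-based 10x platform. They are 2 replicates of 1 condition, with no treatment and no genotype to compare. The assay cuts open chromatin with a transposase, so that each sequenced fragment marks DNA that was accessible in that nucleus. Per the methods, each replicate of a dissection pooled tissue from several mice, but whether this also covers the 10x libraries is not stated, so the spread between the libraries may be partly or wholly technical.

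Astrocytes are glial cells of the central nervous system that take up glutamate and potassium around synapses and meet blood vessels with their endfeet. Gfap, which encodes an intermediate filament of astrocytes, Aqp4, which encodes the water channel of their endfeet, S1pr1, which encodes a sphingosine-1-phosphate receptor, and Fam107a are used as markers of these cells. The tables hold counts, positions and names for each nucleus and no gene, so the name ASC could not be checked against these 4 markers, and accessibility at them was not analysed here. ASC nuclei were set beside the other 6 non-neuronal names, which are oligodendrocyte precursors (OPC), the myelin-forming oligodendrocytes (OGC), the brain's resident macrophages (microglia, MGL), vascular endothelial cells (VEC), the pericytes that wrap capillaries (PER) and vascular and leptomeningeal cells (VLMC), and beside neurons. With 2 libraries, an exact two-sided sign permutation cannot go below p = 0.5, and nuclei of 1 library are not replicates. No test was therefore run, and values are given per library and as mean ± SD over the 2 libraries. Intervals are 95% counting intervals, and they cover counting error only.

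The libraries held 7440 nuclei in replicate 1 and 8874 in replicate 2, with median counts of unique fragments (distinct fragments left after removal of duplicates) of 6169.5 and 5457. No nucleus had fewer than 1000 unique fragments. A total of 105 barcodes occurred in both libraries, of which 11 carried the same name in both. In 27 of the 105 the name was ASC in at least 1 library, and 2 were ASC in both. Leaving out all 105 moved 1 of the ASC values by more than the spread between the libraries, the ratio of median depth to neurons, which was 0.404 without them and 0.405 with them.

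ASC made up similar shares of the nuclei of both libraries. In replicate 1, 10.8% of nuclei were ASC (exact Clopper-Pearson interval 10.1 to 11.5), and in replicate 2, 10.0% (9.40 to 10.7). The mean was 10.4% ± 0.529 (SD, n = 2). The log2 ratio of the share in replicate 2 to that in replicate 1 was -0.10 (-0.23 to 0.03), an interval that holds 0. It did not hold 0 among nuclei with at least 2000 unique fragments, where the log2 ratio was -0.20 (-0.34 to -0.06). With at least 5000 the direction turned, with 1.88% of nuclei ASC as a mean of the libraries and a log2 ratio of 0.12 (-0.31 to 0.55).

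Among non-neuronal nuclei, ASC accounted for 801 of 2719 in replicate 1, or 29.5% (27.8 to 31.2), and for 889 of 3136 in replicate 2, or 28.3% (26.8 to 29.96). The share was closer between the libraries when the vascular names VEC, PER and VLMC were left out. Of the nuclei named ASC, OPC, OGC or MGL, 33.7% (31.8 to 35.7) in replicate 1 and 33.5% (31.7 to 35.4) in replicate 2 were ASC, a mean of 33.6% ± 0.117 (SD, n = 2). It was not closer with MGL left out as well. Of ASC, OPC and OGC together, the glia that share a neural origin, ASC made up 43.0% in replicate 1 and 41.6% in replicate 2. The SD was 0.989 there, against 0.786 among all non-neuronal nuclei.

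ASC and OGC were nearly equal in number. There were 801 ASC and 782 OGC nuclei in replicate 1 and 889 ASC and 920 OGC nuclei in replicate 2. The ratio of ASC to OGC was 1.02 (0.928 to 1.13) in replicate 1 and 0.966 (0.881 to 1.06) in replicate 2, so the order of the names turned between the libraries within counting error. With a minimum of 2000 unique fragments ASC outnumbered OGC by 1.24 to 1 as a mean of the libraries, and with a minimum of 5000 by 2.34 to 1. ASC outnumbered OPC, at 2.87 ASC per OPC nucleus (2.51 to 3.29) in replicate 1 and 2.72 (2.39 to 3.09) in replicate 2. Per MGL nucleus there were 1.56 ASC (1.39 to 1.74) in replicate 1 and 1.73 (1.55 to 1.93) in replicate 2.

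The ratio to endothelial cells differed most between the libraries. ASC numbered 5.52 per VEC nucleus (4.63 to 6.59) in replicate 1 and 3.60 (3.13 to 4.14) in replicate 2, and the log2 ratio of these was -0.62 (-0.94 to -0.29). The VEC nuclei themselves numbered 145 in replicate 1 and 247 in replicate 2. ASC per PER nucleus came to 14.6 (11.1 to 19.1) in replicate 1 and 15.9 (12.1 to 20.8) in replicate 2, and ASC per VLMC nucleus to 5.60 and 4.86. Of the 6 non-neuronal names, VEC was the only one for which the counting interval of the log2 ratio between libraries did not hold 0.

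**Figure D1:**
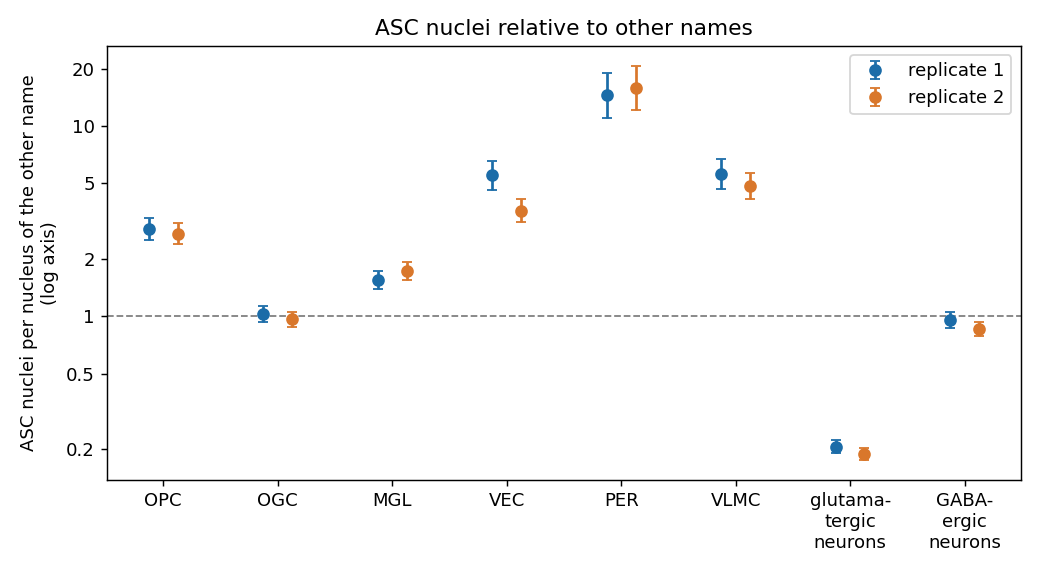
Number of ASC nuclei per nucleus of each other non-neuronal name and of the neuron classes (vertical log axis, no unit), by library, with 95% counting intervals as bars and a dashed line at equal numbers. The ratio to OGC lies at 1.02 and 0.966, on the line, while the ratio to VEC is 5.52 in replicate 1 and 3.60 in replicate 2 with bars that do not overlap.

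Relative to neurons, ASC were a minority in both libraries. There were 16.97 ASC nuclei per 100 neurons (15.7 to 18.3) in replicate 1 and 15.5 (14.4 to 16.6) in replicate 2, a mean of 16.2 ± 1.04 (SD, n = 2). Against the glutamatergic class alone, the excitatory neurons, the ratio was 20.6 per 100 in replicate 1 and 18.9 per 100 in replicate 2. ASC came close in number to the GABAergic class, the inhibitory neurons, with 95.5 (86.7 to 105) per 100 in replicate 1 and 85.7 (78.4 to 93.8) per 100 in replicate 2. Among nuclei with at least 5000 unique fragments there were 2.00 ASC per 100 neurons as a mean of the libraries. These are ratios of nuclei that passed the authors' filters, and how far they follow the ratios in the tissue was not tested.

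ASC nuclei yielded fewer fragments than neurons and more than most other non-neuronal names. The median ASC nucleus had 3329 unique fragments in replicate 1 (quartiles 2688 and 4056, lowest 1009, highest 10728) and 3023 in replicate 2 (quartiles 2259 and 4088, lowest 1004, highest 10732). Neurons had medians of 8202 in replicate 1 and 7464.5 in replicate 2, so that the ASC median was 0.406 and 0.405 of the neuronal one. Among nuclei with at least 5000 unique fragments, a minimum that itself selects on depth, the mean ratio was 0.683. ASC held 5.76% of the unique fragments of replicate 1 and 5.30% of those of replicate 2, a smaller portion than their share of nuclei. With the same minimum the mean portion was 1.29%.

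Set beside each non-neuronal name, the ASC median exceeded that of OGC 1.35-fold in replicate 1 and 1.30-fold in replicate 2. It exceeded that of MGL 1.46-fold and 1.47-fold, that of PER 1.42-fold and 1.46-fold, and that of VLMC 1.20-fold and 1.19-fold. Only OPC and VEC had deeper nuclei at the median in both libraries, with ASC at 0.910 and 0.923 of OPC and at 0.782 and 0.930 of VEC. Over the 6 other non-neuronal names together the ratio was 1.26 ± 0.0187 (SD, n = 2). Among nuclei with at least 5000 unique fragments, which keeps 78 ASC nuclei of replicate 1 and 93 of replicate 2, this ratio turned to 0.921. That minimum selects on depth itself and changes the mix of names compared. VEC made up 65 of the 176 other non-neuronal nuclei kept in replicate 1 and 80 of 216 in replicate 2. Without the minimum VEC were 145 of 1918 and 247 of 2247.

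The spread of depth among ASC nuclei was wider in replicate 2. The upper quartile was 1.51 times the lower one in replicate 1 and 1.81 times in replicate 2. Nuclei with under 2000 unique fragments made up 9.24% of ASC in replicate 1 and 18.0% in replicate 2, while those with 5000 or more made up 9.74% and 10.5%. The libraries differed more at the shallow than at the deep end of the ASC nuclei, and 2 ASC nuclei in each library reached 10000 unique fragments. A shift of this kind was not particular to ASC. The quartile ratio went from 1.60 to 1.90 in neurons and from 1.78 to 1.87 in the other non-neuronal names together, though it fell in VEC and VLMC. Nuclei under 2000 went from 2.46% to 3.47% of neurons and from 25.8% to 32.8% of the other non-neuronal names.

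**Figure D2:**
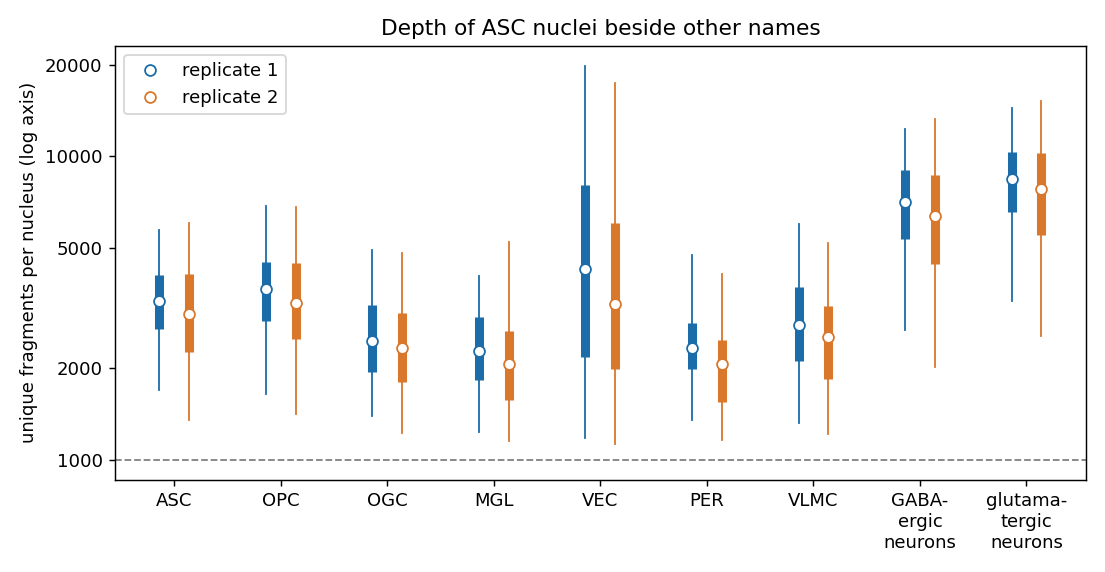
Unique fragments per nucleus (vertical log axis) for ASC, the other non-neuronal names and the neuron classes, by library. Circles are medians, thick bars span the quartiles, thin lines the 5th to 95th percentiles, and the dashed line is the lowest deposited count. The ASC medians of 3329 and 3023 lie above those of OGC, MGL, PER and VLMC and below those of OPC, VEC and both neuron classes.

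The ASC share of nuclei varied with depth. In replicate 1, ASC were 10.1% of nuclei with 1000 to under 1500 unique fragments, 21.7% of those with 2000 to under 3000, 34.9% (31.7 to 38.2) of those with 3000 to under 4000 and 5.75% of those with 5000 to under 7000. In replicate 2 the same classes held 13.8%, 21.6%, 22.5% (19.9 to 25.4) and 4.99% ASC. The highest share lay at 3000 to under 4000 in both libraries, and there the counting intervals of the libraries did not overlap. In replicate 2 it was not set apart from the class below, whose interval was 19.3 to 23.9. From 10000 unique fragments on, 2 of 1258 nuclei in replicate 1 and 2 of 1500 in replicate 2 were ASC.

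Within the non-neuronal nuclei, the commonest name changed with depth in the same order in both libraries. OGC led below 3000 unique fragments, ASC led from 3000 to under 7000, and VEC led from 10000 on. From 7000 to under 10000 the counts were close, with 12 ASC and 18 VEC nuclei in replicate 1 and 19 ASC and 21 VEC nuclei in replicate 2. ASC reached their highest share of non-neuronal nuclei at 4000 to under 5000 unique fragments, with 46.4% (40.5 to 52.3) in replicate 1 and 48.7% (43.0 to 54.4) in replicate 2. In the shallowest class, 1000 to under 1500, they were 13.1% in replicate 1 and 17.6% in replicate 2.

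**Figure D3:**
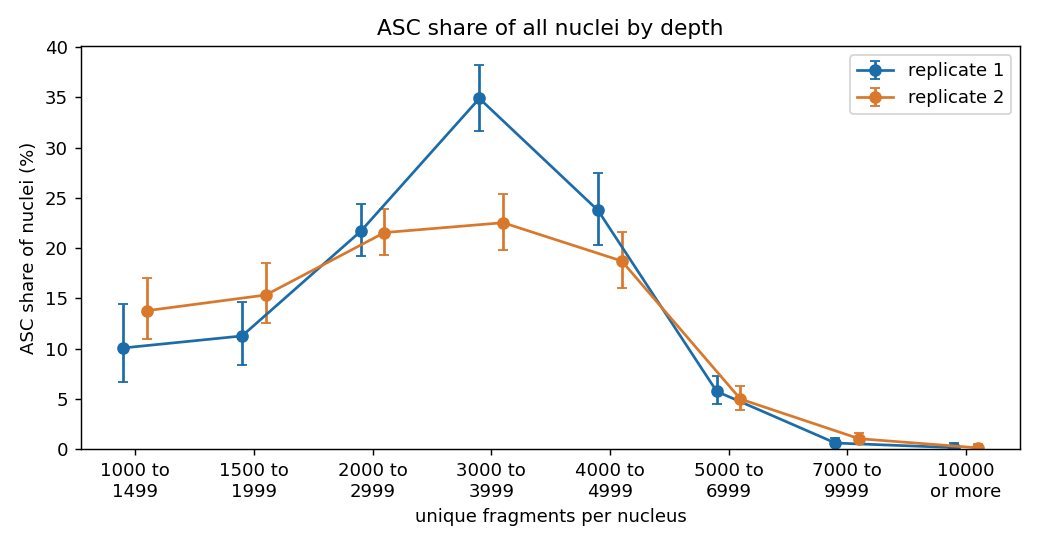
ASC share of all nuclei (vertical axis, %) in 8 classes of unique fragments per nucleus (horizontal axis), by library, with exact 95% intervals as bars. The share is highest at 3000 to under 4000 fragments, at 34.9% in replicate 1 and 22.5% in replicate 2, where it is close to the 21.6% of the class below, and falls to 0.611% in replicate 1 and 1.04% in replicate 2 at 7000 to under 10000.

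Most ASC fragments passed the steps from total to unique fragments. In replicate 1 the median ASC nucleus had 4064 total, 3871 uniquely mapped, 3861 properly paired and 3329 unique fragments. The medians in replicate 2 were 3713, 3558, 3543 and 3023. Summed over ASC nuclei, 81.7% of total fragments in replicate 1 and 80.8% in replicate 2 were unique. Most of the loss was at the last step, from properly paired to unique fragments. That step holds the removal of duplicates and may also hold the filter on length, which the counts used here do not separate.

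The uniquely mapped share, which is the part of the total fragments aligned to the genome with adequate mapping quality, had an ASC median over nuclei of 95.6% in replicate 1 and 95.7% in replicate 2. This lay in the middle of the non-neuronal names. ASC were lower than PER, OGC and OPC, with differences of -0.648 ± 0.0330, -0.517 ± 0.0128 and -0.249 ± 0.0163 percentage points (ASC minus the other name, SD, n = 2 each). They were above MGL by 1.19 ± 0.135 and above VEC by 0.985 ± 0.526, and within 0.0646 ± 0.0422 of VLMC. Among ASC, nuclei with under 90% uniquely mapped fragments numbered 0 of 801 in replicate 1 and 3 of 889 in replicate 2. Among the other non-neuronal names they numbered 19 of 1918 and 52 of 2247. Most of these were MGL (3 and 24) or VEC (11 and 20). OPC had 1 of 279 and 1 of 327, and OGC 3 of 782 and 4 of 920. PER had 0 of 55 and 2 of 56, and VLMC 1 of 143 and 1 of 183.

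The duplicate share is here the part of the properly paired fragments that was not counted as unique. The methods also filter on fragment length, so it may hold fragments lost to that filter beside repeated copies of a fragment. Its median over ASC nuclei was 14.0% in replicate 1 and 14.9% in replicate 2. The gap between the libraries, 0.849 percentage points, was larger than that between ASC and the other non-neuronal names, 0.0203 ± 0.0439. The difference from the other non-neuronal names turned with the processing, being -0.106 with those names weighted to the total fragments of ASC and 0.298 among nuclei with at least 5000 unique fragments. ASC exceeded neurons by 0.407 ± 0.0793 percentage points. Within ASC the duplicate share was higher in deeper nuclei, with medians of 13.5%, 13.9%, 14.1% and 14.4% over the quartiles of total fragments in replicate 1 and of 14.4%, 14.7%, 14.9% and 15.3% in replicate 2. Spearman's rho between total fragments and duplicate share was 0.38 over 801 nuclei and 0.35 over 889, given as a description because both measures contain the same counts. The properly paired share was 99.6% in both libraries.

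In the authors' UMAP embedding, which places nuclei of similar accessibility near each other on axes without a unit, ASC formed a single group apart from every other name. The names and the positions were both made from the accessibility data, so the match between them is a description. For each of the 1690 ASC nuclei the 30 nearest nuclei were taken, and all 50700 of these neighbours were ASC. The same held for 6 of the 17 names, and for 3 of the 7 non-neuronal ones (ASC, PER and VLMC). Linking ASC nuclei over up to 3 times the median distance to the 10th neighbour put 99.6% of them in 1 island, with 7 nuclei outside it. When nuclei of all names were linked over the same distance, the main ASC island held no nucleus of another name. Of the other non-neuronal names, each linked by its own neighbour distance, OPC also formed 1 island, with 100% of its nuclei.

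VEC, which line the blood vessels, were the nearest other name in the embedding. The smallest distance from an ASC nucleus was 2.14 to VEC, 3.22 to PER, 3.23 to VLMC, 3.54 to OPC, 4.03 to OGC and 8.11 to MGL, in UMAP units. Between median positions the distance was 4.17 to VEC, 5.22 to OPC, 5.36 to VLMC, 5.87 to PER, 9.03 to OGC and 9.98 to MGL, so VEC came first and MGL last by both measures. Distances in UMAP do not scale with differences in accessibility. The nearest neuronal name by the smallest distance was CGE, a group of GABAergic neurons, at 5.38.

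ASC were neither the tightest nor the loosest non-neuronal group. The median distance of an ASC nucleus from the median ASC position was 0.497 in replicate 1 and 0.554 in replicate 2, a mean of 0.525 ± 0.0402 (SD, n = 2). PER (0.143), OPC (0.361) and VEC (0.409) were tighter by this mean, and VLMC (0.688), MGL (0.767) and OGC (0.953) were looser. The SD of VEC was 0.141, wider than its difference from ASC.

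ASC nuclei of the libraries lay intermixed. Around an ASC nucleus, the share of neighbours from the other library was 0.980 of that under random mixing within ASC for replicate 1 and 0.988 for replicate 2. The mean, 0.984 ± 0.00581, lay near the median of the other names, 0.978, whose means ranged from 0.743 in VEC to 1.01. The mixing was less even along the first UMAP axis. Over quartiles of ASC nuclei on that axis, from low to high, replicate 2 supplied 51.5%, 45.7%, 53.6% and 59.6% of the nuclei (54.7 to 64.3 in the last), against 52.6% of all ASC nuclei (50.2 to 55.0).

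Depth and mapping also varied along that axis within ASC. In replicate 1 the median count of unique fragments over the quartiles was 3594, 3332.5, 3352.5 and 3132, and in replicate 2 it was 3612, 3065.5, 3086 and 2519.5. The quartile at the high end of the axis was thus the shallowest in each library. The uniquely mapped share was higher there, at 95.8% in the last against 95.5% in the first quartile of replicate 1 and at 96.0% against 95.4% in replicate 2. Spearman's rho between the axis and this share was 0.20 over 801 nuclei and 0.36 over 889. Such a gradient was not particular to ASC. Over the other non-neuronal names the same rho ran from -0.53 in MGL to -0.07 in OPC in replicate 1. In replicate 2 it ran from -0.51 in MGL to -0.05 in OPC. MGL and PER (-0.39 and -0.44) had a rho of larger size than ASC in both libraries. Within quartiles of total fragments the rho of ASC stayed positive, from 0.107 to 0.303 in replicate 1 and from 0.263 to 0.440 in replicate 2. These are descriptions over nuclei that share a library.

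The ASC island had a narrow tail at its upper end on the second UMAP axis. With links of up to 2 times the neighbour distance, the island broke into groups of 1586, 68 and 10 nuclei, with 26 in none, and the smaller groups lay above the largest. The tail was taken as the ASC nuclei above the upper edge of the largest group, 3.18 on that axis, an edge chosen after seeing the data. It held 36 of 801 ASC nuclei in replicate 1, or 4.49% (3.17 to 6.17), and 46 of 889 in replicate 2, or 5.17% (3.81 to 6.84). The log2 ratio between the libraries was 0.20 (-0.41 to 0.82). The tail spanned 0.297 and 0.308 units of the first axis, against 1.95 and 2.20 in the remaining ASC nuclei, here called the body. A span from lowest to highest tends to grow with the number of nuclei. The SD on that axis was 0.0548 and 0.0808 in the tail, against 0.399 and 0.441 in the body.

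**Figure D4:**
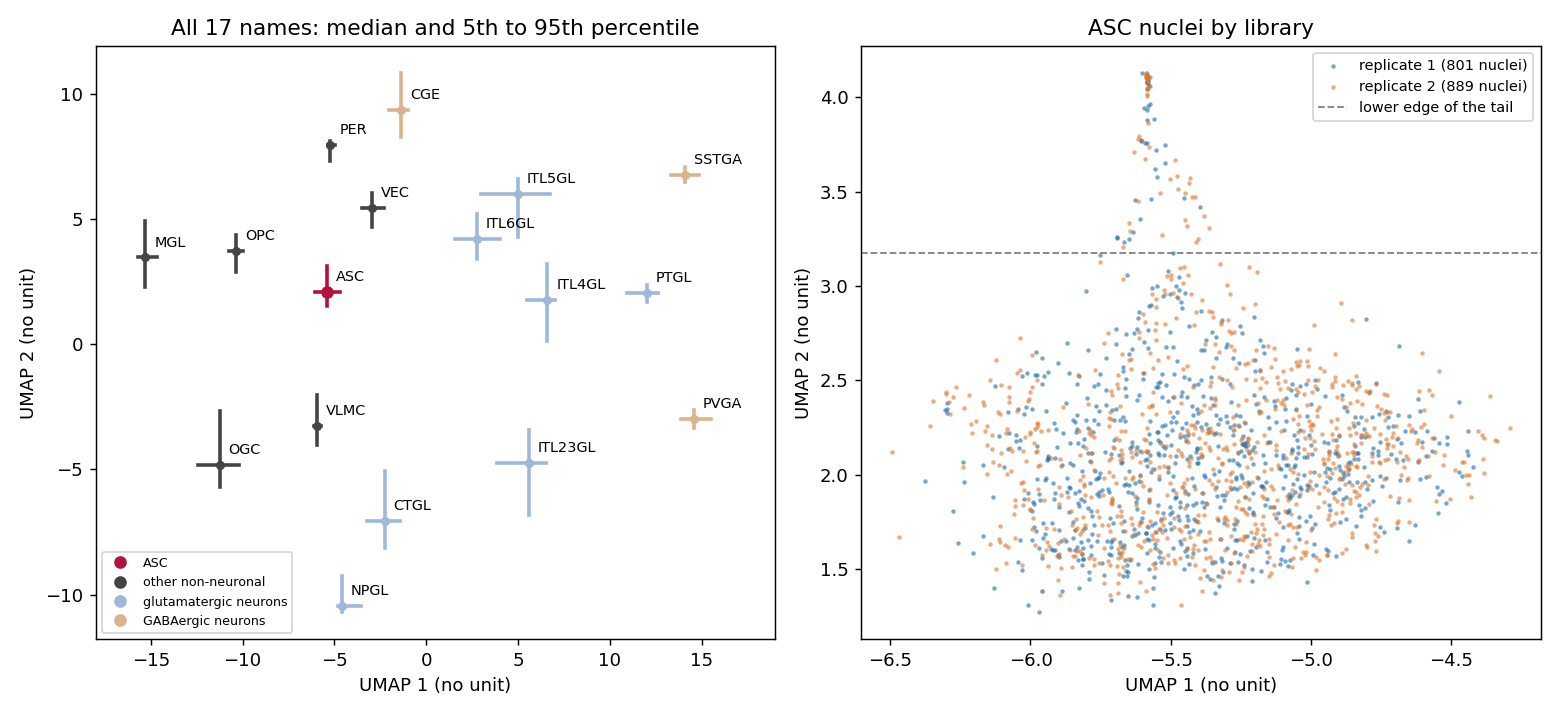
Left, median position of each of the 17 names in the UMAP embedding (no unit), with lines from the 5th to the 95th percentile on each axis. ASC lie alone, with VEC as the nearest name. Right, each ASC nucleus by library, with the dashed line at the lower edge of the tail, 3.18. The 36 tail nuclei of replicate 1 and the 46 of replicate 2 lie in the same narrow column.

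Tail nuclei had a lower uniquely mapped share than the body in both libraries. In replicate 1 the median was 94.5% in the tail and 95.6% in the body, and in replicate 2 it was 94.7% in the tail and 95.7% in the body. The difference was -1.15 percentage points in replicate 1 and -1.02 in replicate 2, a mean of -1.09 ± 0.0921 (SD, n = 2). Of the tail nuclei, 32 of 36 and 40 of 46 fell below the median of the body of their library, so tail and body overlapped. The step lay at the upper end of the axis. In bins of the second axis the median stayed between 95.6% and 95.8% up to 3 in both libraries. From 3 to under 3.5 it was 94.8% over 16 nuclei of replicate 1 and 95.5% over 28 nuclei of replicate 2, so the libraries differed in where the step lay. Above 3.5 it was 94.4% over 26 nuclei of replicate 1 and 94.4% over 31 nuclei of replicate 2. Mapping that varied along this axis was not particular to ASC. Spearman's rho between the second axis and the uniquely mapped share was -0.22 and -0.13 in ASC. Its size was larger in both libraries in MGL (-0.46 and -0.41) and VLMC (-0.43 and -0.41). The same held for OPC (0.43 and 0.36) and PER (0.40 and 0.44). OGC were near ASC (-0.20 and -0.20), and VEC had less (0.07 and -0.03).

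The tail was also somewhat shallower, with a median of 3076 unique fragments against 3333 in the body in replicate 1 and 2541 against 3055 in replicate 2. With the body weighted to the total fragments of the tail, the difference in uniquely mapped share was -1.19 percentage points in replicate 1 and -1.07 in replicate 2. The duplicate share differed by 0.157 and 0.0604 percentage points. What sets the tail apart was not tested, since the tables hold no gene, no doublet score and no enrichment at start sites.

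**Figure D5:**
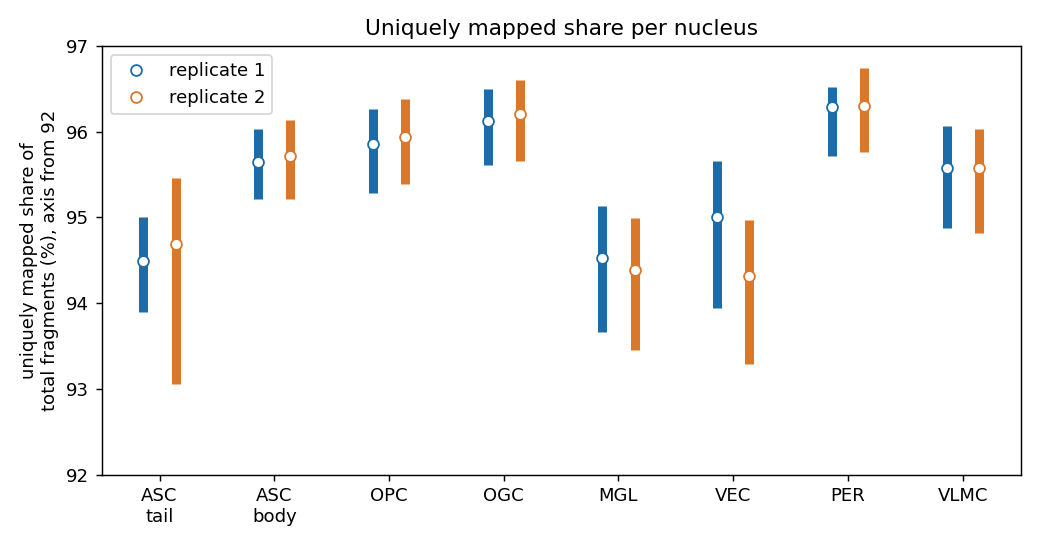
Uniquely mapped share of total fragments per nucleus (vertical axis, %, not starting at 0) for the ASC tail, the ASC body and the other non-neuronal names, by library, with medians as circles and quartiles as bars. The tail medians of 94.5% and 94.7% lie below the body medians of 95.6% and 95.7%.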

How the data were processed

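The authors deposited 1 table per library with, for each nucleus, whole-number fragment counts (total, uniquely mapped, properly paired, unique, mitochondrial). The deposited tables also hold a log10 column, equal to log10(unique fragments + 1), and UMAP coordinates, which are scores without a unit, made by the authors and used as deposited. The columns were read by the names SnapTools gives them. The methods describe alignment with bwa to mm10, filters on mapping quality, pairing and length, duplicate removal with SnapTools, and a minimum of fragments and of TSS enrichment for each nucleus. Cell Ranger ATAC, BWA, mm10 and GRCm38 appear in the submitters' processing notes. Versions, and the step at which Cell Ranger ATAC served, were not given in the sources used here. Doublets were treated only by the authors, with a modified Scrublet and removal of barcode collisions. The mitochondrial count was 0 in every nucleus.

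From these counts, shares with exact Clopper-Pearson intervals, ratios with log-method intervals, medians, neighbours (30 nearest, both libraries) and islands (DBSCAN, at least 10 nuclei) were computed with scikit-learn 1.9.0, scipy 1.17.1, numpy 2.4.6 and pandas 2.3.3 in Python 3.11.15, plotted with matplotlib 3.10.9, and checked on simulated data. A filter on fragments favours deeply covered names. All 7 non-neuronal names and the neuron classes are described, and a single neuronal name only where it lay nearest to ASC among neurons. The members, lists and alternatives were chosen with earlier results of these data known. The tail, the bins of the UMAP axes, and the alternatives on the tail and on shared barcodes were chosen after seeing the data.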

Additional observations from a re-analysis of the deposited data

How the results depend on the processing

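Across 22 results and 18 alternatives, 139 of 182 comparisons moved by no more than the spread or interval of the value and 43 moved further. The 139 include 20 comparisons without replicate 1 and 20 without replicate 2, which could not move further by construction. These comparisons therefore say nothing on how stable the values are. Values below are means of the libraries. With at least 2000 unique fragments, ASC were 33.2% of non-neuronal nuclei, 14.5 per 100 neurons and 1.24 per OGC nucleus, with a median of 3397 fragments, 1.13 of the other non-neuronal names and 0.427 of neurons, and a duplicate difference of -0.0449 percentage points. The tail was then 4.12% of ASC, and its difference in uniquely mapped share was -0.893. With at least 5000, ASC were 1.88% of nuclei, 30.4% of non-neuronal nuclei, 2.00 per 100 neurons and 2.34 per OGC nucleus. The log2 ratio of the shares was 0.12 (-0.31 to 0.55), the median 5864.5, 0.921 of the other non-neuronal names and 0.683 of neurons, and the share of unique fragments 1.29%. The mapped, paired and duplicate shares were 95.5%, 99.7% and 15.1%, the duplicate difference 0.298, the island share 100%, the mixing 0.976 and the spread 0.477. Both minimums select on depth, in which the names differ. With the deepest 5% of nuclei left out, ASC came to 10.9% of nuclei, 17.5 per 100 neurons, a depth ratio to neurons of 0.420 and 6.35% of fragments. Geometric means gave depth ratios of 1.18 to the other non-neuronal names and 0.428 to neurons. Summed counts gave a mapped share of 95.5% and a difference of 0.445. Weighting the other names to the total fragments of ASC gave a duplicate difference of -0.106. The cause of these shifts was not tested. Links of 2 and 5 times the neighbour distance left 93.9% and 100% of ASC in the largest island, and the root mean square distance was 0.657. Without shared barcodes the ratio to neurons was 0.404. Without the tail it was 0.408, and ASC were 27.9% of non-neuronal nuclei and 0.947 per OGC nucleus. A tail from 3.5 held 3.37% of ASC, with a difference of -1.25. Pooling, either library alone and 10 or 100 neighbours moved none of the values they were run on, though with 2 libraries each lies within 1 SD of their mean by construction. No paired analysis was possible because the replicates belong to 1 condition. Depth limits the comparison of ASC among deep nuclei, where few ASC remain.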
